A study of Mus musculus with 2 samples.

Results

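The killer lectin-like receptors are a family of C-type lectin-like surface proteins that natural killer (NK) cells use to read other cells, and they were described here across the immune cells of a mouse melanoma. All genes whose symbol starts with Klra, Klrb, Klrc, Klrd, Klre, Klrg, Klri or Klrk were taken, which gave 26 of the 32285 genes in the files. B16-F10 is a transplantable mouse melanoma cell line, and DGAT1 is an enzyme of the last step of triglyceride synthesis. The study asked how the immune cells of DGAT1 knockout tumours differ from those of tumours with the intact gene. The groups compared were CD45+ cells from subcutaneous tumours of DGAT1 KO B16-F10 cells and CD45+ cells from subcutaneous tumours of WT B16-F10 cells, both taken on day 14. In both groups the deletion or its absence belongs to the implanted tumour cells. Each group is 1 droplet library from 3 tumours, per the labels, and its cells cannot be traced to single tumours. Not given in the sources used here are the strain, sex and age of the host mice and whether the KO line is a single clone. Because a single library stands for each group, differences have no replicate check, and no test or p-value is given. Intervals are exact 95% intervals and cover counting error only.

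The KO library held 202946827 unique molecular identifiers (UMIs, counted molecules) and the WT library 235652476, and 10946 KO and 9053 WT cells were kept, with medians of 10789 and 14192 UMIs per cell. The libraries shared 25 cell barcodes. Cells were assigned to classes by marker genes that do not belong to the family. The gates held 455 KO and 208 WT NK cells, 2351 and 1792 CD8 T cells, 37 and 24 gamma-delta T cells, and 3663 and 3800 mononuclear phagocytes. The classes were checked with genes that no gate used. Eomes, an NK transcription factor, had 155 CPM (CPM: UMIs of the gene scaled to a fixed total of the class) in KO and 133 CPM in WT NK cells, Tcrg-C1 had 136 and 275 CPM in gamma-delta T cells against at most 0.819 CPM in NK cells, CD8 T cells and phagocytes, Trac had 357 and 387 CPM in CD8 T cells against 15.3 and 11.9 CPM in NK cells, and Ctss had 2561 and 2546 CPM in phagocytes. Other check genes were shared between classes: Nkg7 had 1542 and 1183 CPM in NK cells and 1490 and 1726 CPM in CD8 T cells, Xcl1 657 and 407 CPM in NK cells and 461 and 1505 CPM in gamma-delta T cells, and Tcrg-C2 114 and 127 CPM in gamma-delta T cells and 44.8 and 21 CPM in CD8 T cells. The NK gate also admits Ncr1+ innate lymphoid cells. Cells with melanoma genes and no UMI of Ptprc, the gene of CD45, numbered 117 KO and 477 WT despite the CD45+ sort. Dgat1 had 18.7 CPM (14.6 to 23.6) in the KO and 26.8 CPM (24.1 to 29.6) in the WT melanoma-like cells, but UMIs mark transcript ends and need not report on an edit elsewhere in the gene. Melanoma genes also turned up in gated cells, more in the WT library. Cells with at least 20 UMIs of Pmel, Mlana, Dct and Tyrp1 per 10000 are called mixed cells here. In the NK gate 1 KO and 4 WT mixed cells held 4.20% and 29.9% of all UMIs of the class. In the CD8 T gate 2 KO and 10 WT mixed cells held 0.469% and 3.37% of the UMIs, in the phagocyte gate 3 KO and 54 WT ones 0.182% and 0.993%, and in the B cell gate 0 KO and 2 WT ones 0% and 19.5%. NK values are therefore given with and without the 5 mixed cells of that gate, a choice made after the data were seen.

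Mouse NK cells carry members of the family in combinations, and each cell sums activating and inhibitory signals. The Klra genes encode the Ly49 receptors, most of which bind classical MHC class I molecules. Klrd1 (CD94) pairs with Klrc1 (NKG2A, inhibitory) or Klrc2 (NKG2C, activating) to bind the class Ib molecule Qa-1, encoded by H2-T23, and Klrk1 (NKG2D) is an activating receptor for stress-induced ligands. Activated CD8 T cells take up several of these genes, and Klra2 (Ly49B) and Klra17 (Ly49Q) are known from myeloid cells. Of the 26 members 7 were counted as activating, 13 as inhibitory and 2 as partner subunits, and 4 were left without a role. All lie on chromosome 6 of mm10 (GRCm38) and are protein coding. Apart from Klrg1 and Klrg2 they form one complex between positions 128609227 and 131247362. Neighbouring members resemble each other, so that reads near transcript ends can be shared. Of the stretches of 60 bases in the last 400 bases of the transcripts, 49.2% in Klrc1, 41.9% in Klra10, 24.8% in Klra3, 23.7% in Klra9 and 13.2% in Klrc2 also occur in another member, and levels of these 5 genes are uncertain to that extent. For Klrc1 the closest other member was Klrc2, with 46.3%. Levels are not compared between genes, because a UMI count near the transcript end depends on the gene.

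The promoters of 3 Ly49 genes are shown because their genes were read in different cells: Klra2 and Klra17 in phagocytes, and Klra7 (Ly49G) in NK cells. Each is the 250 bases upstream of the annotated start, from RefSeq on GRCm38.p6, minus strand, written 5′ to 3′. Capitals mark GAGGAA or its complement TTCCTC, the core of the motif of PU.1, a transcription factor of myeloid cells.
Klra2, chr6:131247363-131247612: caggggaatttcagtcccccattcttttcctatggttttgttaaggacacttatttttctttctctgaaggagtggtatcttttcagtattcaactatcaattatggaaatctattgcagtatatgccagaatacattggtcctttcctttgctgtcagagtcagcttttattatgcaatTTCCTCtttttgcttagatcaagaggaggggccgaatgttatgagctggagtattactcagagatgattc
Klra17, chr6:129876673-129876922: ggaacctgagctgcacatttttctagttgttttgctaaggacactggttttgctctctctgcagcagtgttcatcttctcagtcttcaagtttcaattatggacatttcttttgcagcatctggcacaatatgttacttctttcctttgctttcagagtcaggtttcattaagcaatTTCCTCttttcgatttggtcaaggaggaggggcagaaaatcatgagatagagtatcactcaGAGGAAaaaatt
Klra7, chr6:130233323-130233572: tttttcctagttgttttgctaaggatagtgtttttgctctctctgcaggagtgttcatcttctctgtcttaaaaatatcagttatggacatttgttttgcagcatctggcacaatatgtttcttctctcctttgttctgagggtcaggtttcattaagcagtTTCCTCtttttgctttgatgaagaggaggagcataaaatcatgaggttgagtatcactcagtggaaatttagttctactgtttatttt
The Klra7 window is 1 of 2 that RefSeq gives for the gene, and the other, chr6:130231688-130231937, holds no match. Klra17 and Klra7 were identical at 203 of 233 aligned bases (87.1%), Klra2 and Klra17 at 191 of 244 (78.3%), and Klra2 and Klra7 at 173 of 227 (76.2%). All 3 windows printed hold the PU.1 core. A window was found for 23 of the 26 members, and 15 of these hold GAGGAA on either strand, against 23.25% of all 32851 windows. The RUNX core TGTGGT was present in 8 members and 14.05% of all windows, and the T-box core GGTGTGA in 0 members and 3.333% of all windows. A member counts if any of its windows holds a match, while the background counts single windows, so the 2 shares are not in like units. Members are copies of one another, so that these matches are not independent.

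**Figure D1:**
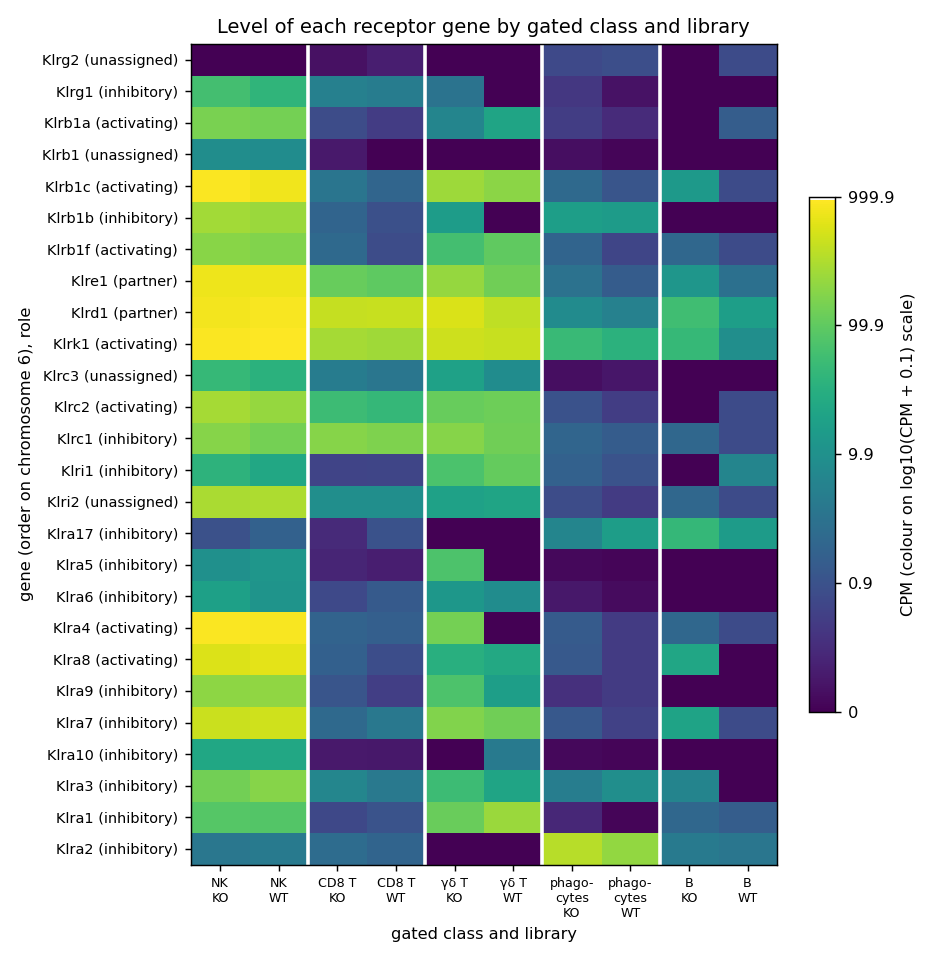
Colour gives CPM on a log10(CPM + 0.1) scale for the 26 members (rows, in order along chromosome 6, with their roles) in 5 gated classes (columns, KO left of WT in each). NK cells are shown without the 5 mixed cells. Most rows are brightest in NK cells, Klra2 is brightest in phagocytes, and Klra17 is brightest in KO B cells, from 22 UMIs in 3 cells. B cells, which should lack the family, are few.

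In NK cells the receptor genes were higher in the KO library when all gated cells were summed, and close to equal once the 5 mixed cells were left out. As gated, the activating members summed to 3725 CPM (3663 to 3788) in KO and 2660 CPM (2599 to 2723) in WT NK cells, a ratio of 1.40 (1.36 to 1.44). The inhibitory members summed to 1412 CPM in KO and 1019 CPM in WT NK cells, a ratio of 1.39 (1.32 to 1.45). The difference was thus alike for both kinds of receptor. Of 22 members with at least 50 UMIs over both libraries, 7 were at least 1.5-fold higher in KO and 0 at least 1.5-fold lower, beside 14.7% and 13.9% of all 9437 genes with at least 50 UMIs. The 7 were Klrg1, Klrb1c, Klrc1, Klrc2, Klrc3, Klri1 and Klra6. The median log2 ratio of the 22 was 0.49, against 0.11 over all genes.

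Without the mixed cells the activating sum was 3888 CPM (3823 to 3954) in the 454 KO cells and 3781 CPM (3693 to 3869) in the 204 WT cells, a ratio of 1.03 (1.0 to 1.06). The inhibitory sum was 1474 CPM in KO and 1442 CPM in WT cells, a ratio of 1.02 (0.98 to 1.07). Neither sum differed beyond counting error. Klrg1, Klri1 and Klra6, all 3 inhibitory, remained at least 1.5-fold higher and 0 of 22 were at least 1.5-fold lower, beside 7.7% and 3.62% of 8685 genes. The median log2 ratio of the members was 0.05, against 0.10 over all genes. All values for NK cells below leave the 5 cells out.

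Among the activating members, Klrk1 had 909 CPM (878 to 941) in KO and 943 CPM (899 to 988) in WT NK cells, a ratio of 0.96 (0.91 to 1.02). Klra4 (Ly49D) had 894 CPM in KO and 867 CPM in WT cells, a ratio of 1.03 (0.97 to 1.09). These receptors stood level in the libraries. Klra8 (Ly49H, the receptor for a mouse cytomegalovirus protein) had 583 CPM in KO and 659 CPM in WT cells, a ratio of 0.88 (0.82 to 0.95). Klrb1c, which encodes the NK1.1 antigen, had 892 CPM in KO and 782 CPM in WT cells, a ratio of 1.14 (1.07 to 1.21). Klrc2 had 279 CPM (261 to 297) in KO and 223 CPM (202 to 245) in WT cells, a ratio of 1.25 (1.11 to 1.40). The intervals of these last 3 ratios leave out 1, but no ratio reached 1.5. After thinning each cell to 3000 UMIs, 54.1% (49.2 to 58.9) of KO and 44.4% (37.2 to 51.8) of WT cells had a UMI of Klrc2, and the 2 intervals overlap. Klrb1a and Klrb1f had ratios of 1.08 each, with intervals that hold 1.

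Of the inhibitory members, Klrg1, a receptor for cadherins, marks mature NK cells. It had 61.9 CPM (53.9 to 70.7) in KO and 39.3 CPM (30.8 to 49.3) in WT NK cells, a ratio of 1.58 (1.21 to 2.08). After thinning, 13.2% (10.1 to 16.8) of KO and 5.82% (2.94 to 10.2) of WT cells had a UMI of it, and without thinning 21.4% and 16.7%. The 10 cells with most UMIs held 30.9% of the gene's UMIs in KO and 56.8% in WT, so the WT level rests on few cells. Klri1, which forms dimers with Klre1, had 37.4 CPM in KO and 24.4 CPM in WT cells, a ratio of 1.53 (1.09 to 2.19), with 76.1% of its WT UMIs in 10 cells. Klra6 (Ly49F) had 18.2 CPM in KO and 11.1 CPM in WT cells, and its ratio of 1.64 (0.99 to 2.82) is not set apart from 1. Klrc1 had 182 CPM (168 to 196) in KO and 137 CPM (121 to 155) in WT cells, a ratio of 1.32 (1.14 to 1.53). After thinning, 31.3% (26.9 to 36.0) of KO and 27.0% (20.8 to 33.9) of WT cells had a UMI of Klrc1, so the share differed less than the level. Klra3 (Ly49C) went the other way, with 133 CPM (121 to 145) in KO and 178 CPM (160 to 198) in WT cells, a ratio of 0.74 (0.65 to 0.86). Its share after thinning was 19.9% in KO and 18.0% in WT cells. Klra7, with 455 CPM in KO and 483 CPM in WT cells, Klra9 (Ly49I), with 202 and 205 CPM, Klra1 (Ly49A), with 85.5 and 81.7 CPM, and Klrb1b, a receptor for Clec2d, with 263 and 240 CPM, had ratios between 0.94 and 1.09, each with an interval that holds 1. Klra10 (Ly49J) had 23.1 and 23.9 CPM, and Klra5 (Ly49E) 9.69 and 12.2 CPM.

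The partner subunit Klrd1 had 793 CPM (763 to 823) in KO and 852 CPM (811 to 895) in WT NK cells, a ratio of 0.93 (0.88 to 0.99), and Klre1 had 751 and 742 CPM, a ratio of 1.01 (0.95 to 1.08). Klrd1 was thus slightly lower while Klrc1 and Klrc2, which pair with it, were higher. Of members without a role, Klri2 had 300 and 306 CPM, Klrc3 46.2 and 35.0 CPM, and Klrb1 8.84 and 8.49 CPM from 31 and 16 UMIs. Klra2 and Klra17, the myeloid members, had 13 and 3 UMIs in KO and 8 and 3 in WT NK cells, and free RNA was estimated to give 116% and 72.3% of the Klra2 UMIs. Klrg2 had 0 UMIs in both, which by 3 counts allows a UMI in up to 0.661% of 454 KO and 1.47% of 204 WT cells.

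**Figure D2:**
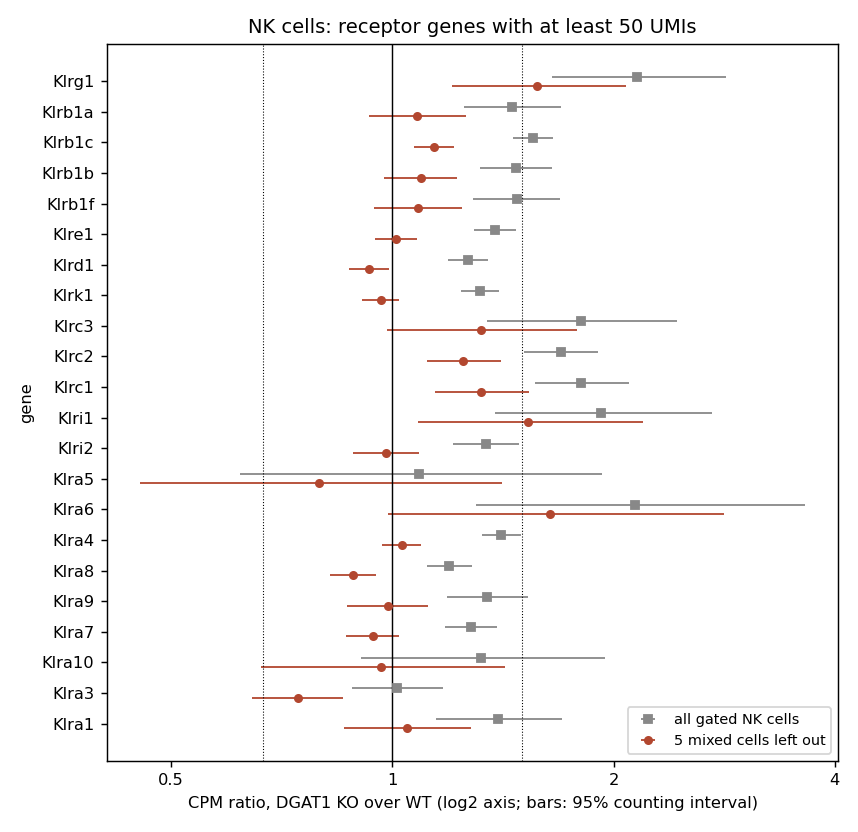
Points give the CPM ratio of DGAT1 KO over WT in NK cells for the 22 members with at least 50 UMIs (log2 axis, bars are 95% counting intervals). Grey squares are all gated cells, red circles leave out the 5 mixed cells, and dotted lines mark 1.5-fold. With all cells 7 squares pass the upper line, and without the mixed cells Klrg1, Klri1 and Klra6 do.

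Ly49 genes are switched on gene by gene in each NK cell, and the repertoire per cell was read from cells thinned to 3000 UMIs. No Klra gene was seen in 14.1% (10.9 to 17.8) of 418 KO and 14.3% (9.63 to 20.1) of 189 WT NK cells. Exactly 1 was seen in 15.8% of KO and 16.4% of WT cells, 2 in 24.6% and 28.0%, and 3 or more in 45.5% (40.6 to 50.4) and 41.3% (34.2 to 48.6). All 4 pairs of intervals overlap, so the number of Ly49 genes per cell was not seen to differ at this depth. Activating and inhibitory members occurred together in 94.0% of KO and 93.7% of WT cells. Both Klra4 and Klra8 were seen in 28.9% of KO and 32.8% of WT cells, Klra4 without Klra8 in 23.7% and 16.9%, and Klra8 without Klra4 in 14.4% and 13.2%. Klrc1 occurred with an inhibitory Klra gene in 21.3% of KO and 16.4% of WT cells, and an inhibitory Klra gene without Klrc1 in 54.8% and 61.9%. Neither was seen in 13.9% of KO and 11.1% of WT cells. Klrc1 with Klrc2 was seen in 15.1% (11.8 to 18.9) of KO and 8.99% (5.33 to 14.0) of WT cells, and Klrg1 with Klrc1 in 4.78% (2.95 to 7.29) and 1.06% (0.128 to 3.77). The intervals overlap for both pairs. With all UMIs, Klrc1 with Klrc2 was seen in 29.3% of KO and 31.9% of WT cells and Klrc1 with an inhibitory Klra gene in 31.3% and 33.8%, the other way round from the thinned cells, while Klrg1 with Klrc1 was seen in 11.9% and 5.39%. No difference in the pairs of Klrc1 with Klrc2 or with an inhibitory Klra gene can be read from these shares. Shares of this kind miss genes that a cell expresses at a low level.

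**Figure D3:**
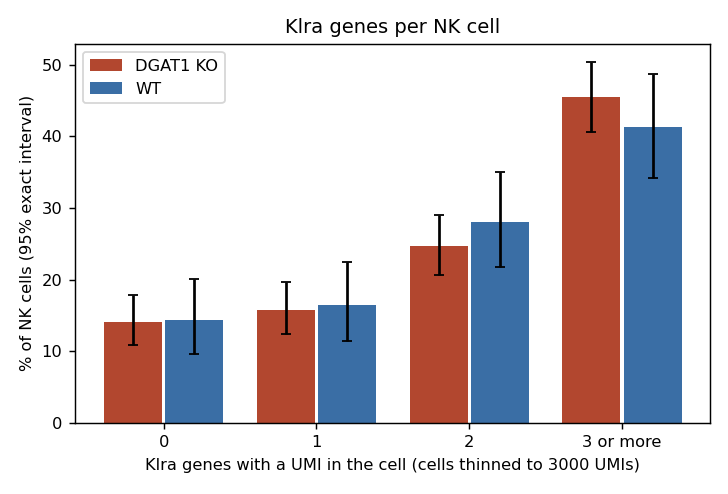
Bars give the percentage of NK cells (mixed cells left out, thinned to 3000 UMIs) with UMIs of 0, 1, 2 or at least 3 Klra genes, KO left of WT, with 95% exact intervals. The largest class in both libraries is 3 or more, 45.5% of KO and 41.3% of WT cells, and the intervals of KO and WT overlap in each class.

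In CD8 T cells both kinds of receptor were about 1.1-fold higher in the KO library. The activating members summed to 333 CPM (329 to 338) in KO and 302 CPM (297 to 307) in WT cells, a ratio of 1.1 (1.08 to 1.13). The inhibitory members summed to 200 CPM (196 to 203) in KO and 182 CPM (179 to 186) in WT cells, a ratio of 1.1 (1.07 to 1.13). Klrk1, which costimulates CD8 T cells, made up most of the first sum, and Klrc1, an inhibitory checkpoint of tumour-infiltrating CD8 T cells, most of the second. Klrk1 had 270 CPM (266 to 274) in KO and 253 CPM (249 to 258) in WT cells, a ratio of 1.07 (1.04 to 1.09). Klrc1 had 178 CPM (174 to 181) in KO and 163 CPM (160 to 167) in WT cells, a ratio of 1.09 (1.06 to 1.12). Klrd1 had 424 CPM in KO and 437 CPM in WT cells, a ratio of 0.97 (0.95 to 0.99), while Klrc2 had 53.8 CPM (51.9 to 55.8) in KO and 43.5 CPM (41.7 to 45.4) in WT cells, a ratio of 1.24 (1.17 to 1.31). The order was thus the same as in NK cells, Klrc2 higher and Klrd1 slightly lower in KO. Klre1 had 111 and 98.8 CPM, a ratio of 1.12 (1.08 to 1.16).

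After thinning to 3000 UMIs, 40.6% (38.6 to 42.6) of KO and 35.7% (33.5 to 38) of WT CD8 T cells had a UMI of Klrc1, intervals that do not overlap, and 80.9% and 76.6% without thinning. Klrk1 was seen in 51.0% of KO and 48.6% of WT cells, Klrd1 in 61.2% and 62.9%, Klrc2 in 14.6% and 12.6%, and Klre1 in 23.9% and 22.5%. In B cells, with 64 KO and 149 WT cells, the thinned shares were 8.20% and 1.36% for Klrk1, 4.92% and 3.40% for Klrd1, and 0% and 0.680% for Klrc1. The CD8 T shares of these genes lie far above the B cell shares, at median depths of 18601 and 22576 UMIs in CD8 T cells and 5702 and 6145 UMIs in B cells before thinning. Klrc1 and Klrk1 were seen together in 23.4% (21.7 to 25.2) of KO and 19.4% (17.6 to 21.4) of WT CD8 T cells. At least 1 activating and 1 inhibitory member were seen together in 28.6% (26.7 to 30.4) and 24.7% (22.8 to 26.8), again more often in KO cells, though the intervals overlap slightly.

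**Figure D4:**
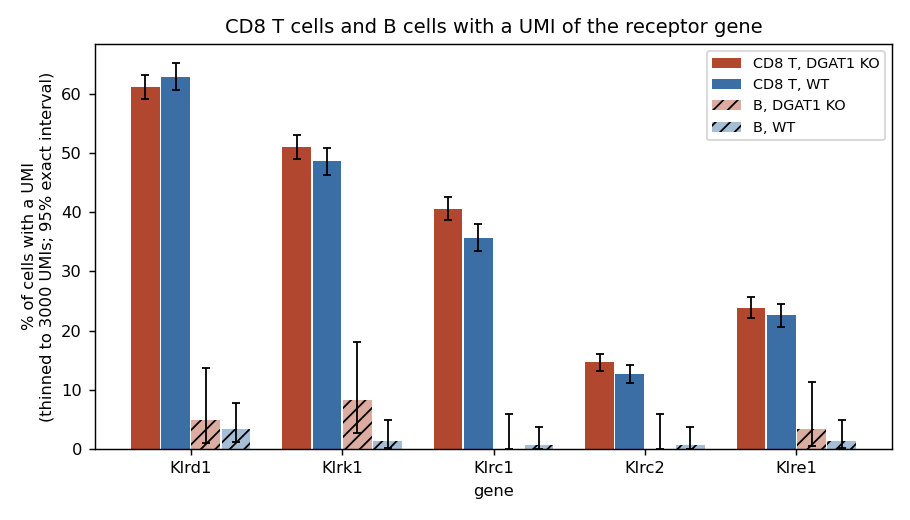
Bars give the percentage of cells with a UMI of the gene after thinning to 3000 UMIs, in CD8 T cells (plain) and B cells (hatched), KO left of WT in each, with 95% exact intervals. Klrc1 stands at 40.6% of KO and 35.7% of WT CD8 T cells, and the B cell bars are at 8.20% or below for all 5 genes.

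Of 22 measured members in CD8 T cells, 7 were at least 1.5-fold higher in KO and 3 at least 1.5-fold lower, beside 2.89% and 10.9% of 13589 genes. All 10 were rare, with at most 6.67 CPM in either library. The higher ones were Klrb1a, Klrb1b, Klrb1c, Klrb1f, Klra3, Klra8 and Klra9, and the lower ones Klra6, Klra7 and Klra17. Of the activating ones, Klrb1a had 0.749 CPM in KO and 0.415 CPM in WT cells, a ratio of 1.80 (1.04 to 3.21), Klrb1f 2.18 and 0.732 CPM, a ratio of 2.97 (2.04 to 4.42), and Klra8 1.53 and 0.772 CPM, a ratio of 1.99 (1.35 to 2.98). Of the inhibitory ones, Klrb1b had 1.78 and 0.851 CPM, a ratio of 2.10 (1.45 to 3.07), and Klra9 1.03 and 0.455 CPM, a ratio of 2.27 (1.38 to 3.86). Klra6 had 0.660 and 1.25 CPM, a ratio of 0.53 (0.34 to 0.81), and Klra17 0.196 and 0.910 CPM, a ratio of 0.22 (0.10 to 0.42). Behind Klra17 stand 11 KO and 46 WT UMIs, of which 49.7% and 37.1% were put down to free RNA. Klra3 had 6.67 CPM (6.01 to 7.38) in KO and 3.94 CPM (3.41 to 4.52) in WT cells, a ratio of 1.69 (1.42 to 2.02), with UMIs in 134 KO and 81 WT cells. Klrb1c had 3.42 and 1.86 CPM, a ratio of 1.84 (1.43 to 2.38), from 51 KO and 27 WT cells, and 10 cells held 60.4% and 75.5% of its UMIs. Klra7 had 2.16 CPM in KO and 3.84 CPM in WT cells, a ratio of 0.56 (0.44 to 0.71), with 60.3% and 75.3% of UMIs in 10 cells. At least 1 Klra gene had a UMI in 15.5% of KO and 13.3% of WT CD8 T cells, and after thinning in 4.11% and 3.90%. A low level in many cells is not told apart from a small subset by these shares. Free RNA was estimated to give all UMIs of Klra2 in CD8 T cells, and 38.3% and 56.3% of those of Klrb1b. Klrg1 had 5.26 and 4.49 CPM, a ratio of 1.17 (0.98 to 1.40). Klri2 had 9.15 and 9.04 CPM and Klrc3 4.51 and 3.50 CPM, and Klra1, Klra2, Klra4 and Klri1 had at most 2.44 CPM in either library with ratios between 0.67 and 1.36. Klra5, Klra10, Klrb1 and Klrg2 had fewer than 50 UMIs.

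The CD8 T cells were also split by Havcr2 (TIM-3), a marker of exhaustion, which had a UMI in 81.8% of KO and 87.0% of WT cells. In cells with Havcr2, Klrc1 had 180 CPM in KO and 165 CPM in WT, a ratio of 1.09 (1.06 to 1.12). In cells without it, Klrc1 had 164 CPM in KO and 137 CPM in WT, a ratio of 1.20 (1.07 to 1.35), so it was higher in KO on both sides. The Klra genes together had 14.7 CPM (13.6 to 15.8) in KO and 10.9 CPM (10.0 to 11.9) in WT cells with Havcr2, a ratio of 1.34 (1.20 to 1.51). In cells without Havcr2 they had 39.7 CPM (34.7 to 45.2) in KO and 92.8 CPM (82.0 to 105) in WT, a ratio of 0.43 (0.36 to 0.51). The direction for the summed Klra level was opposite on the 2 sides of the split, but the thinned shares of cells with a Klra UMI had overlapping intervals on both sides. Without Havcr2, 16.3% of KO and 15.9% of WT cells had a Klra UMI, and after thinning 7.66% (5.30 to 10.6) and 9.05% (5.62 to 13.6). With Havcr2 the shares were 15.3% and 12.9%, and after thinning 3.34% (2.58 to 4.24) and 3.16% (2.35 to 4.16). The cells without Havcr2 numbered 429 in KO and 233 in WT and were shallower, with medians of 10220 and 8195 UMIs against 21111 and 25389 in cells with it, and the part of depth in the split was not tested.

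The gamma-delta T cells were few, and 8 members reached 50 UMIs. Ncr1, which the NK gate uses, had 209 CPM in KO and 275 CPM in WT gamma-delta T cells. It had 704 and 497 CPM in NK cells as gated and 2.80 and 1.05 CPM in CD8 T cells. Eomes had 47.4 and 33.8 CPM in gamma-delta T cells, beside 29.7 and 39.4 CPM in CD8 T cells. The part of Ncr1+ cells in the receptor levels of gamma-delta T cells was not tested. The activating members summed to 1058 CPM (948 to 1178) in the 37 KO and 909 CPM (792 to 1039) in the 24 WT cells, a ratio of 1.16 (0.98 to 1.39), and the inhibitory ones to 761 and 664 CPM, a ratio of 1.15 (0.93 to 1.41). Neither sum differed beyond counting error. Klre1 was at least 1.5-fold higher in KO and Klra1 at least 1.5-fold lower, beside 14% and 9.29% of 2229 genes. These counts, 1 of 8 measured members each way, lie near the shares of all genes. Klre1 had 218 CPM in KO and 131 CPM in WT cells, a ratio of 1.66 (1.07 to 2.63), and Klra1 had 117 CPM (82.3 to 161) in KO and 241 CPM (183 to 312) in WT cells, a ratio of 0.49 (0.31 to 0.75). Klre1 was read in 14 KO and 7 WT cells, and 10 cells held 92.8% of its KO and 100% of its WT UMIs. Klra1 was read in 9 KO and 6 WT cells. Klrd1 had 559 and 397 CPM, a ratio of 1.41 (1.09 to 1.83), and Klrk1 468 and 440 CPM. Klrb1c, Klrc1 and Klra7 had ratios of 1.25, 1.37 and 1.25 and Klrc2 one of 0.87, each with an interval that holds 1. Klra4 had 44 UMIs from 3 KO cells and 0 in WT cells, at least 11.0-fold higher when 3 counts are set as the limit for the WT library, and Klra5 had 23 UMIs from 3 KO cells and 0 in WT cells. Each of these differences rests on 3 cells. The other members had fewer than 50 UMIs, and Klra2, Klrg2 and Klrb1 had 0 in both libraries.

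In phagocytes the family was higher in the KO library, and 1 gene, Klra2, held most of its UMIs. Klra2, an inhibitory Ly49 receptor of myeloid cells, had 349 CPM (344 to 354) in KO and 213 CPM (210 to 217) in WT phagocytes, a ratio of 1.63 (1.60 to 1.67). After thinning it was seen in 53.0% (51.3 to 54.7) of KO and 41.0% (39.4 to 42.6) of WT phagocytes, and without thinning in 77.3% and 70.5%. Free RNA was estimated to give 0.982% and 0.843% of these UMIs. The inhibitory sum, 382 CPM in KO and 257 CPM in WT, had a ratio of 1.49 (1.46 to 1.52), and the activating sum, 56.6 and 38.4 CPM, one of 1.48 (1.40 to 1.56). The activating sum was mostly Klrk1, with 48.9 CPM (46.9 to 50.8) in KO and 35.4 CPM (34.0 to 36.8) in WT, a ratio of 1.38 (1.31 to 1.46). Over the level in the few B cells, Klra2 in phagocytes stood at a ratio of 85.8 in KO and 61.2 in WT. Klrk1 stood at 1.05 (0.70 to 1.65) in KO, not set apart from B cells, and at 3.90 (2.28 to 7.34) in WT.

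Klra17 and Klra3 ran against Klra2. Klra17, an inhibitory receptor known from plasmacytoid dendritic cells and other myeloid cells, had 6.26 CPM (5.58 to 7.0) in KO and 16 CPM (15.1 to 17.0) in WT phagocytes, a ratio of 0.39 (0.34 to 0.44), and was read in 4.40% and 12.1% of cells. In B cells it had 44.7 CPM in KO and 15.3 CPM in WT, from 22 UMIs in 3 KO and 22 UMIs in 2 WT cells. Its level in phagocytes was thus not above that in B cells in either library. Klra3 had 4.67 CPM (4.09 to 5.31) in KO and 9.17 CPM (8.46 to 9.92) in WT phagocytes, a ratio of 0.51 (0.44 to 0.59), read in 3.79% and 9.13% of cells. In B cells Klra3 had 6.09 CPM in KO, from 3 UMIs, and 0 in WT. After thinning the phagocyte shares were 1.17% and 3.62% for Klra17 and 0.888% and 1.88% for Klra3. In all, 10 of 17 measured members were at least 1.5-fold higher in KO and these 2 at least 1.5-fold lower, beside 8.31% and 9.36% of 13624 genes. Apart from Klra2, the higher members were Klrb1c, Klrb1f, Klrc2, Klre1, Klri1, Klri2, Klra4, Klra7 and Klra8, each with at most 3.00 CPM in either library. Their KO and WT levels were 2.17 and 1.02 CPM for Klrb1c, 1.79 and 0.575 CPM for Klrb1f, 0.886 and 0.428 CPM for Klrc2, 1.27 and 0.398 CPM for Klra4 and 1.21 and 0.383 CPM for Klra8, all activating. They were 1.63 and 0.958 CPM for Klri1, 1.15 and 0.487 CPM for Klra7, 3.0 and 1.36 CPM for Klre1, and 0.745 and 0.398 CPM for Klri2. Their ratios ran between 1.70 (Klri1, 1.21 to 2.40) and 3.19 (Klra4, 2.0 to 5.20), and each interval lies above 1. Free RNA was estimated to give between 8.23% and 83.3% of their KO UMIs and between 13.8% and 72.2% of their WT UMIs, and its part in these ratios was tested only by subtracting it, as given in the closing section. NK cells, where Klra4 had 856 CPM and Klra8 558 CPM in KO as gated, were 4.16% of kept KO and 2.30% of kept WT cells. The part of NK cells caught together with phagocytes in the count of higher members was not tested. Klrb1b, the inhibitory receptor for Clec2d, had 17.0 and 15.1 CPM, a ratio of 1.13 (1.03 to 1.23). Klrd1 had 8.21 and 5.53 CPM, with 66.0% and 74.3% of its UMIs put down to free RNA, Klrc1 1.89 and 1.34 CPM, with 92.8% and 76.2%, and Klrg2 0.664 and 0.811 CPM. The other 9 members, Klrg1, Klrb1, Klrb1a, Klrc3, Klra1, Klra5, Klra6, Klra9 and Klra10, had fewer than 50 UMIs over both libraries, at most 0.423 CPM in either.

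The make-up of the phagocytes differed between the libraries: cells high in the complement genes C1qa, C1qb and C1qc, which mark macrophages, were 38.4% of KO and 64.0% of WT phagocytes. Klra2 was higher in C1q-low cells of both libraries, and the difference between libraries was smaller on each side of this split than over all phagocytes. In C1q-low cells it had 486 CPM in KO and 401 CPM in WT, a ratio of 1.21 (1.18 to 1.25). In C1q-high cells it had 216 CPM in KO and 156 CPM in WT, a ratio of 1.39 (1.34 to 1.44). Klra17 was mostly in C1q-high cells, with 11.5 CPM in KO and 20.1 CPM in WT, a ratio of 0.57 (0.50 to 0.65), and in C1q-low cells it had 0.818 and 2.88 CPM, a ratio of 0.28 (0.16 to 0.49). It was thus lower in KO on both sides. Klra3 had 8.44 and 11.7 CPM in C1q-high cells, a ratio of 0.72 (0.62 to 0.85), and 19 and 18 UMIs in C1q-low cells, where its ratio of 0.69 (0.34 to 1.40) is not set apart from 1. Klrk1 had 40.3 CPM in KO and 29.2 CPM in WT C1q-high cells, a ratio of 1.38 (1.28 to 1.5), against 57.7 and 55.5 CPM in C1q-low cells, a ratio of 1.04 (0.96 to 1.13). Klrb1b had 12.8 and 6.44 CPM in C1q-low cells, a ratio of 1.99 (1.59 to 2.51), and 21 and 17.7 CPM in C1q-high cells, a ratio of 1.18 (1.06 to 1.32). Klrk1 and Klrb1b therefore differed on opposite sides, the first in C1q-high and the second mainly in C1q-low cells.

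**Figure D5:**
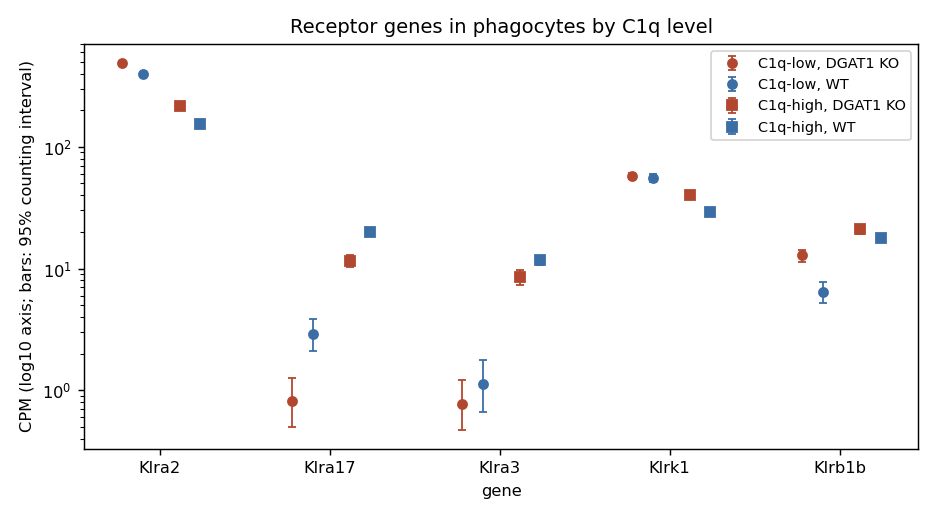
Points give CPM (log10 axis, bars are 95% counting intervals) of 5 members in C1q-low (circles) and C1q-high (squares) phagocytes, KO left of WT in each pair. Klra2 is higher in KO on both sides, with 486 against 401 CPM and 216 against 156 CPM, and Klra17 is lower in KO on both sides, with 0.818 against 2.88 CPM and 11.5 against 20.1 CPM.

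The adaptors that carry the signal of the activating receptors differed less than 1.5-fold in each of the 4 classes. Tyrobp (DAP12), used by Ly49D, Ly49H and NKG2C, had 1467 CPM in KO and 1690 CPM in WT NK cells without mixed cells, a ratio of 0.87 (0.83 to 0.91), and 1551 and 1555 CPM in phagocytes. As gated, its NK ratio was 1.18 (1.13 to 1.23), so its direction turned with the 5 cells. Hcst (DAP10), used by NKG2D, had 370 and 362 CPM in NK cells without mixed cells, 197 and 185 CPM in CD8 T cells, a ratio of 1.06 (1.03 to 1.09), and 23.8 and 25.3 CPM in phagocytes. Tyrobp in CD8 T cells had 20.7 and 25.4 CPM, a ratio of 0.82 (0.75 to 0.88), and the estimates of free RNA, 105% and 152% of its UMIs, cover all of them. In gamma-delta T cells Tyrobp had 360 and 397 CPM and Hcst 392 and 338 CPM, and both intervals of the ratio hold 1. Of 10 listed signalling genes, 5 (Inpp5d, Syk, Zap70, Vav1 and Plcg2) were at least 1.5-fold higher in KO NK cells as gated, beside 14.7% of all genes. Without the mixed cells 0 were, beside 7.7%. In CD8 T cells 0 of 9 measured ones differed by 1.5-fold. In gamma-delta T cells Ptpn6 (SHP-1), the phosphatase used by inhibitory members, was lower, with 82.2 CPM in KO and 199 CPM in WT, a ratio of 0.41 (0.25 to 0.68), from 26 and 47 UMIs. In phagocytes Plcg2 was higher in KO, with 216 and 138 CPM, a ratio of 1.57 (1.52 to 1.61), and Sh2d1b1 (EAT-2) lower, with 15.2 and 24.7 CPM, a ratio of 0.62 (0.57 to 0.67). Zap70, with 1.75 and 1.06 CPM, and Lck, with 3.83 and 2.52 CPM, also passed 1.5-fold there, but at least 83.6% of their UMIs were put down to free RNA.

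Of the 19 listed ligands 15 are in the files. H2-T23, which encodes the ligand of the CD94 pairs, had 209 CPM in KO and 256 CPM in WT NK cells without mixed cells, a ratio of 0.82 (0.73 to 0.92), against 1.07 (0.96 to 1.20) as gated. In CD8 T cells it had 229 and 286 CPM, a ratio of 0.80 (0.78 to 0.82), and in phagocytes 344 and 392 CPM, a ratio of 0.88 (0.86 to 0.90). In gamma-delta T cells it had 265 and 279 CPM, a ratio of 0.95 (0.68 to 1.33). The ligand gene was thus lower in KO in both large classes, while Klrc1 was higher in CD8 T cells. Clec2i, a ligand gene of NKR-P1 receptors, had 24.3 CPM in KO and 12.9 CPM in WT CD8 T cells, a ratio of 1.89 (1.72 to 2.07), but 51.9 and 82.2 CPM in NK cells without mixed cells, a ratio of 0.63 (0.51 to 0.79). Cdh1, a ligand of Klrg1, had 3.25 and 1.76 CPM in CD8 T cells, a ratio of 1.84 (1.42 to 2.40), and 4.61 and 1.03 CPM in phagocytes, a ratio of 4.47 (3.40 to 5.93). Cdh2 was lower in both, with 1.12 and 2.89 CPM in CD8 T cells and 0.383 and 0.840 CPM in phagocytes, but this moved with the mixed cells. Melanoma-like cells had 87.9 CPM of Cdh2 in KO and 58.6 CPM in WT. Without mixed cells 13 KO and 19 WT UMIs of Cdh2 were left in CD8 T cells, a ratio of 0.60 (0.27 to 1.28), and 17 and 32 in phagocytes, a ratio of 0.72 (0.37 to 1.34), so neither is set apart from 1. Of measured ligands, 2 of 9 were higher and 1 lower in CD8 T cells, beside 2.89% and 10.9% of all genes. In phagocytes 1 of 11 was higher and 1 lower, beside 8.31% and 9.36%. In gamma-delta T cells 0 of 4 differed either way, beside 14% and 9.29%. In NK cells without mixed cells 0 of 7 were higher and 1 lower, beside 7.7% and 3.62%. The counts in phagocytes and the count of lower ligands in CD8 T cells thus lie near the shares of all genes. In melanoma-like cells the listed ligand H2-K1 had 252 CPM in KO and 799 CPM in WT, a ratio of 0.32 (0.30 to 0.34). H2-T23 had 39.8 and 59.8 CPM there, a ratio of 0.67 (0.56 to 0.79). H2-D1 had a ratio of 0.76 (0.73 to 0.79). Raet1d and Raet1e had ratios of 0.51 (0.25 to 0.97) and 0.59 (0.40 to 0.84), and Clec2d one of 1.12 (0.87 to 1.44). Median depth was 1508 UMIs in KO and 1280 in WT melanoma-like cells, and free RNA was not estimated there. The levels are sums over the class, so deep cells weigh most in them. Only 44 of 117 KO and 165 of 477 WT cells reached the depth used for thinning. The part of these deep cells in the ratios was not tested.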

How the data were processed

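One KO and 1 WT droplet library of CD45+ tumour cells were analysed. The authors deposited raw counts, whole UMIs of each gene in each barcode. Cell Ranger 7.2.0 wrote them, per the file headers, on the build mm10, per the submitters' processing notes. Their annotation was not given in the sources used here, and positions are from GENCODE M21.

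Cells were called per library above a UMI threshold (percentile 99 of the leading barcodes over 10, giving 9264 UMIs in KO and 16615 in WT) or, from 500 UMIs, by a Monte Carlo test against free RNA (barcodes of at most 100 UMIs, 10000 simulations, false discovery rate 0.01). Of 12436 KO and 10427 WT calls, 11291 and 9207 had at least 250 genes and at most 10% mitochondrial UMIs. Scrublet (scanpy 1.11.5) marked 345 (3.06%) and 154 (1.67%) doublets, which were removed; undetected doublets remain possible. Of kept cells, 2836 and 1690 fell in no gate and 63 and 15 in several. CPM are a gene's UMIs over all UMIs of the class in that library. Levels have exact Poisson, ratios exact conditional and shares exact Clopper-Pearson intervals. A gene was counted as higher or lower at a ratio of 1.5 with at least 50 UMIs over both libraries. Shares use cells thinned to 3000 UMIs; shallower cells were left out, leaving 419 KO and 193 WT NK cells, 2336 and 1770 CD8 T cells, 35 and 24 gamma-delta T cells and 3492 and 3506 phagocytes. Free RNA per class was estimated from genes of other lineages at 2.22% to 4.49% of UMIs, NK cells taken without mixed cells. From melanoma genes, which mixed cells also carry, it came to 10.4% in KO and 20.5% in WT CD8 T cells, 11.8% and 12.6% in phagocytes, 8.06% and 5.96% in gamma-delta T cells and 6.74% and 9.21% in NK cells without mixed cells. Free RNA shares of single genes use the first estimate and would be larger with the second. For simulated counts of the 13589 CD8 T cell genes, 95.1% of intervals of unchanged genes covered the truth. These counts were drawn as Poisson counts, for which the interval is exact. The simulation thus checks only how the interval was computed, not its coverage where UMIs gather in few cells. Members, roles, gates and lists were chosen with earlier results of these data known. By the rule for named genes, values are given for members with at least 50 UMIs in a class and for listed pathway genes that differ by 1.5-fold, with Tyrobp, Hcst and H2-T23; in gamma-delta T cells and for some rare members only ratios or ranges are printed. Promoters were taken from RefSeq windows, and figures were drawn with matplotlib 3.10.9.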

Additional observations from a re-analysis of the deposited data

Results flagged for a closer look

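Klra3, Klra7 and Klra6 passed 1.5-fold in opposite directions in 2 classes, and in each case the difference between the classes was not tested. Klra3 had a log2 ratio of KO over WT of 0.76 in CD8 T cells and -0.97 in phagocytes. Klra7 had -0.83 in CD8 T cells and 1.24 in phagocytes, where 57 KO and 33 WT UMIs lie behind it and free RNA was estimated to give 48.8% and 56.2% of them. Klra6 had 1.1 in NK cells as gated and -0.92 in CD8 T cells, where 10 cells held 83.8% of its KO and 92.1% of its WT UMIs.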

How the results depend on the processing

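No paired analysis was possible because each group is 1 library. The summed log2 ratios were 0.49 and 0.47 for activating and inhibitory members in NK cells, 0.14 and 0.13 in CD8 T cells, 0.22 and 0.20 in gamma-delta T cells and 0.56 and 0.57 in phagocytes. In NK cells they came to 0.041 and 0.031 without mixed cells, 0.046 and 0.15 with stricter gates, -0.030 and 0.038 with clusters in place of gates, 0.11 and 0.089 thinned to 3000 UMIs, 0.088 and 0.055 with each cell weighted alike, 0.37 and 0.36 with median-ratio scaling, and 1.46 and 1.63 with only barcodes above the UMI threshold, which left 111 KO and 22 WT cells. Members higher in NK cells were 3 without mixed cells or with stricter gates, 4 with clusters, 2 thinned and 19 above the threshold, in place of 7. In CD8 T cells the activating value was 0.11 without mixed cells, 0.084 with clusters and 0.18 above the threshold, and the inhibitory one 0.21 thinned. There 4 members were higher and 1 lower when thinned or with clusters, and 1 was lower above the threshold, in place of 7 and 3. In phagocytes the activating value was 0.47 thinned, 0.67 with clusters, 0.48 with each cell alike and 0.66 above the threshold, the inhibitory one 0.53 thinned and 0.71 above the threshold, and 3 members were higher when thinned and 6 with stricter gates, in place of 10. In gamma-delta T cells the values above the threshold, from 9 KO and 4 WT cells, were 0.68 and -0.24, the inhibitory one with each cell alike was 0.71, and the counts of higher and lower members were 0 and 0 thinned, 4 and 4 with no UMI minimum, 4 higher above the threshold and 2 lower with doublets kept. Clusters gave no gamma-delta T class, so that alternative has no value there. In NK cells 9 of 22 members changed sign without mixed cells, with stricter gates or with clusters, and 7 when thinned or with each cell alike, among them Klra8 (0.26 as gated, -0.18 without mixed cells), Klrd1 (0.34 and -0.10) and Klrk1 (0.40 as gated, -0.11 with clusters). Of members past 1.5-fold as gated, those that turned were Klrb1a in CD8 T cells (-1.62 thinned), Klra6 and Klra7 in CD8 T cells (0.42 and 0.38 with clusters), and, with each cell alike, Klra9 in CD8 T cells (-0.078) and Klrc2 and Klri2 in phagocytes (-0.25 and -0.12). Apart from the mixed cells, the cause of these moves was not tested. Subtracting free RNA at the lower estimate, 2.68% in KO and 2.39% in WT phagocytes, left 11 of the 12 phagocyte members past 1.5-fold in their direction. The larger estimate from melanoma genes, 11.8% and 12.6%, was not subtracted, so this does not settle the part of free RNA. The counts of higher and lower members also need at least 50 UMIs, as defined above. Shares of all genes were taken only as gated and for NK cells without mixed cells, so counts under other settings have none beside them. Followed by name, 10 of these 12 stayed past 1.5-fold in their direction when thinned, 11 with stricter gates and 8 with each cell alike. In CD8 T cells 8 of 10 did when thinned, 7 with clusters and 5 with each cell alike. In NK cells 3 of 7 did when thinned or with clusters, and 1 with each cell alike.

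The main limit is 1 library per group: tumour-to-tumour spread is unknown. Counting intervals cover neither it nor sorting, and fewer expressing cells cannot be told apart from less RNA per cell where only sums are given. Gamma-delta T cells and rare members rest on few cells, and genes with shared transcript ends cannot be fully separated.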

Other observations

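The family was also read in dendritic cells, CD4 T cells and neutrophils, which the comparisons above leave out. In the cluster of type 1 conventional dendritic cells, 130 KO and 159 WT cells, Klrb1b had 82.6 CPM in KO and 68.9 CPM in WT, a ratio of 1.20 (1.0 to 1.43), Klrk1 213 and 171 CPM, a ratio of 1.24 (1.11 to 1.39), and Klri1 38.5 and 53.4 CPM, a ratio of 0.72 (0.57 to 0.91). In the cluster of other dendritic cells, 286 KO and 169 WT cells, Klrk1 was lower in KO, with 168 and 254 CPM, a ratio of 0.66 (0.60 to 0.74), and so was Klrd1, with 53.2 and 83.0 CPM, a ratio of 0.64 (0.53 to 0.78). Klri1, in the same cells, had 101 and 104 CPM. Both clusters were chosen after the data were seen, because the gate for type 1 dendritic cells spread over several clusters. In that gate, with 488 KO and 473 WT cells, Klri1 went the other way. It had 54.4 CPM in KO and 33.4 CPM in WT, a ratio of 1.63 (1.44 to 1.85). Klrb1b had a ratio of 1.91 (1.76 to 2.07) there and Klrk1 one of 1.59 (1.49 to 1.71). The direction for Klri1 thus depends on how these cells are picked.

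In CD4 T cells Klrg1 had 30.4 CPM (182 UMIs) in KO and 81.5 CPM (168 UMIs) in WT, a ratio of 0.37 (0.30 to 0.46). It was seen after thinning in 6.51% of KO and 15.3% of WT cells, and 10 cells held 58.2% and 57.7% of its UMIs. Neutrophils had Klra2 at 249 CPM in KO and 256 CPM in WT, a ratio of 0.97 (0.77 to 1.24), beside the ratio of 1.63 in phagocytes. Plasmacytoid dendritic cells, 64 KO and 21 WT, had Klra17 at 275 CPM in KO and 185 CPM in WT, a ratio of 1.49 (1.09 to 2.07), beside 0.39 in phagocytes. None of these differences between classes was tested.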
